A study of Glycine max with 12 samples.

Results

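In soybean (Glycine max) roots, 198 genes were lower at high manganese in the material labelled W while their mean levels in the material labelled OX3 stayed close to the control. They were chosen from the 43517 genes of the deposited count table, with each count divided by the total of its library and multiplied by 1000000 (CPM). A gene was taken when its mean over the 12 libraries was at least 2 CPM, its highest W library at high manganese lay below its lowest W control, its log2 ratio of mean CPM + 0.5 in W was at most -1, and the same ratio in OX3 lay between -0.3 and 0.3. Of the 43517 genes, 25399 reached 2 CPM. The lower levels in W and the near-level means in OX3 are therefore what selected the genes, and they are given below as a description.

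The study sequenced root RNA of W and OX3 plants given MnSO4 at 5 µM, the control, or at 50 µM. The headers of the deposited tables write W as WT and OX3 as OX. What OX3 carries, the cultivar, the age of the plants and whether several plants were pooled are not stated by the labels or the files. Each of the 4 groups had 3 libraries: W control 2, 3 and 4, W 50 µM 1, 2 and 3, OX3 control 2, 3 and 4, and OX3 50 µM 2, 3 and 4. Nothing in the labels shows that the libraries of a group are separate plants, so a p-value reflects library-to-library spread, which may be technical.

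Manganese is an essential micronutrient that serves as a cofactor of several plant enzymes, among them the mitochondrial superoxide dismutase. Roots take it up mainly through metal transporters of the plasma membrane, and plant cells store the surplus in the vacuole. In excess it is toxic, disturbs the use of iron and calcium, and is associated with oxidative stress. The genes are named here by their Glyma identifiers, since none of the identifiers matched the RefSeq table at hand, and no role is given to any of them. For the same reason the tissue and the OX3 label were not checked against marker or target genes. Soybean holds many near-identical gene copies, and the sources used here do not give how reads shared between copies were counted.

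The libraries held between 15175866 and 19408318 counted reads. Scaling to the full total left the median gene at at least 2 CPM with a log2 ratio of -0.16 in W and -0.15 in OX3. With edgeR's trimmed mean of M-values (TMM), which rescales the library totals, these medians were -0.03 and 0.01. The same rescaling moved the median of the 198 genes from -1.16 to -1.03 in W and from -0.13 to 0.04 in OX3. Some libraries stood apart: W control 2 and OX3 control 2 had the highest TMM factors, 1.21 and 1.25, and W control 2 also had the steepest trend of level with gene length, described below.

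In W, the mean CPM + 0.5 of the 198 genes was between 2.00 and 6.75 times lower at 50 than at 5 µM, with a median of 2.23 times. The added 0.5 makes these values smaller than the folds of mean CPM itself, most so in genes at low CPM. In whole roots, less RNA per cell and fewer cells of a type cannot be told apart. Many lay close to the limit of the choice: 81 had a log2 ratio between -1.1 and -1. Of the 198, 22 were at -1.5 or lower, and 5 were lower by 4 times or more in mean CPM + 0.5. With 0.1 added in place of 0.5, Glyma.08G116700, Glyma.14G149800, Glyma.03G042400 and Glyma.17G226300 also passed 4 times. Their log2 ratios were then -2.14, -2.24, -2.30 and -2.18. Genes that met the conditions in W were mostly lower in OX3 too. Of 1002 genes that met all conditions in W whatever their OX3 ratio, 940, or 93.8%, also had an OX3 ratio below 0, against 63.8% of all genes at 2 CPM or more. The median OX3 ratio of the 1002 was -0.63, against -0.15 for all genes. Of the 1002, 120 met the mirrored conditions in OX3 as well, a count given without the share of all genes that met them. Among the 198 chosen genes, 148 had a ratio below 0 in OX3 and 50 a ratio above 0, which became 81 and 117 with TMM.

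**Figure D1:**
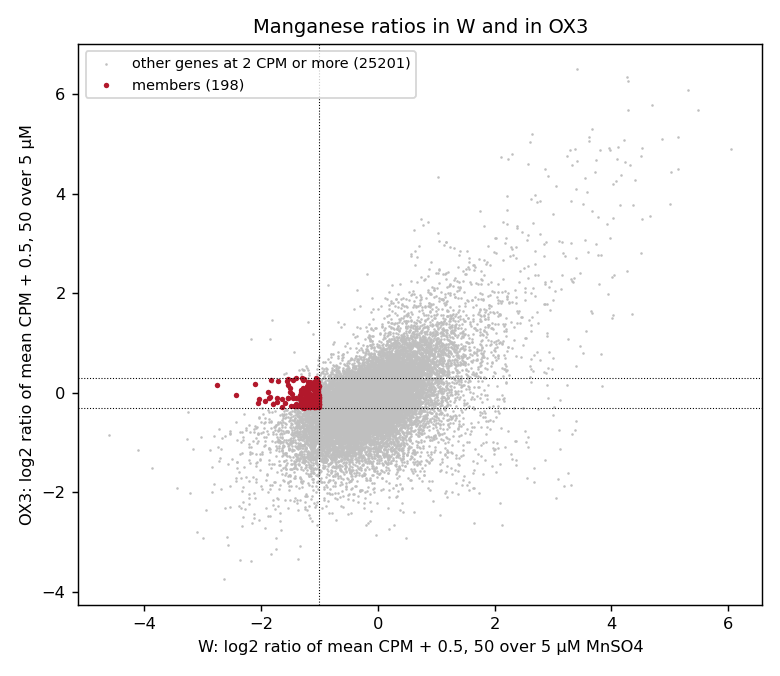
Log2 ratio of mean CPM + 0.5, 50 over 5 µM MnSO4, in W (horizontal) and in OX3 (vertical) for each gene at 2 CPM or more; the 198 chosen genes are red, and dotted lines mark the limits of the choice. The red points crowd against the W limit of -1, and only 5 lie at -2 or lower.

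The gene with the lowest W ratio was Glyma.11G087300, on chromosome 11. It stood at 22.2, 40.4 and 38.1 CPM in W control 2, 3 and 4, and at 6.09, 2.79 and 4.75 CPM in W 50 µM 1, 2 and 3. In OX3 it stood at 25.1, 27.1 and 6.75 CPM in control 2, 3 and 4, and at 6.29, 20.95 and 38.8 CPM in 50 µM 2, 3 and 4. The W groups were far apart, whereas the OX3 groups covered nearly the same range, each with 1 library under 7 CPM. Its log2 ratio was -2.76 in W, or 6.75 times lower in mean CPM + 0.5, and 0.16 in OX3.

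Glyma.07G073700 had the next lowest W ratio, -2.43. Its W controls were at 16.9, 18.2 and 10.2 CPM and its W libraries at 50 µM at 2.96, 3.18 and 1.08 CPM. Its OX3 controls were at 3.81, 7.87 and 1.32 CPM, and OX3 50 µM 2, 3 and 4 at 1.92, 3.10 and 7.43 CPM. All 6 OX3 libraries lay below the lowest W control, so the level mean in OX3 was a low one.

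Glyma.16G051300 stood at 18.9, 47.4 and 38.6 CPM in the W controls and at 7.71, 7.71 and 8.84 CPM in W at 50 µM. Its W ratio was -2.05. In OX3 it had the widest relative spread of the 198 genes, an SD of 0.861 times its mean over 6 libraries: 6.18, 31.9 and 3.90 CPM in the controls and 4.97, 9.95 and 21.5 CPM at 50 µM. OX3 control 3 and OX3 50 µM 4 were high and the other OX3 libraries were low.

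Glyma.14G188100 showed the same arrangement, with 44.7, 80.2 and 64.2 CPM in the W controls and 18.2, 15.5 and 11.3 CPM in W at 50 µM. Its OX3 controls were at 22.8, 55.9 and 9.33 CPM, and OX3 50 µM 2, 3 and 4 at 9.11, 24.97 and 46.3 CPM. The W groups were apart and the OX3 groups overlapped over almost their whole range.

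Glyma.16G218100 was at 41.6, 54.6 and 43.7 CPM in the W controls, at 12.2, 12.8 and 6.498 CPM in W at 50 µM, at 34.5, 51.0 and 22.0 CPM in the OX3 controls, and at 36.9, 21.9 and 62.4 CPM in OX3 at 50 µM. Here the OX3 libraries of both treatments spread from 21.9 to 62.4 CPM, all above the W libraries at 50 µM. The remaining 5 of the 10 genes with the lowest W ratios were Glyma.08G116700, Glyma.14G149800, Glyma.03G042400, Glyma.17G226300 and Glyma.04G042100, with W ratios from -1.94 to -1.82 and OX3 ratios from -0.18 to 0.25.

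Without W control 2, the W ratio was -1.12 in Glyma.14G149800, -1.099 in Glyma.17G226300 and -1.04 in Glyma.03G042400, against -1.88, -1.84 and -1.87 with it. In these 3 genes W control 2 was well above the other W controls.

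In Glyma.03G042400, W control 2 held 7.87 CPM and the other W controls 1.59 and 2.47 CPM, against 0.614, 0.972 and 0.602 CPM in W at 50 µM. OX3 50 µM 4 held 14.98 CPM, against 1.44 and 3.29 CPM in OX3 50 µM 2 and 3 and 7.11, 7.71 and 6.59 CPM in the OX3 controls. A single library thus kept its OX3 ratio near 0: it was -0.11 with OX3 50 µM 4 and -1.41 without it.

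6 of the 198 genes held the most reads by mean CPM, a scale that is not divided by gene length: Glyma.20G205800, Glyma.14G121400, Glyma.04G147700, Glyma.15G134300, Glyma.04G042100 and Glyma.18G018200, from 1229 down to 398 CPM. Glyma.20G205800 stood at 1430, 2502 and 2060 CPM in the W controls and at 834, 1112 and 981 CPM in W at 50 µM. Its OX3 controls spread from 352 to 1785 CPM around OX3 libraries at 50 µM of 899, 911 and 935 CPM. The near-equal OX3 means thus joined a wide control group to a narrow treated group.

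Glyma.04G042100 stood at 502, 1122 and 1091 CPM in the W controls and at 287, 274 and 207 CPM in W at 50 µM. Its OX3 controls 2, 3 and 4 were at 252, 794 and 85.6 CPM and OX3 50 µM 2, 3 and 4 at 108, 399 and 843 CPM. The OX3 groups covered nearly the same range, with OX3 control 3 and OX3 50 µM 4 the highest. Its OX3 ratio was 0.25, and -0.57 without OX3 50 µM 4.

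Glyma.14G121400 was the one of these 6 whose OX3 libraries numbered 4 stood out together. They held 2378 CPM in the control and 1838 CPM at 50 µM, while the other OX3 libraries held 375 and 454 CPM in the controls and 500 and 789 CPM at 50 µM. In W it was at 1279, 1030 and 995 CPM in the controls and at 526, 532 and 422 CPM at 50 µM. In W the groups were tight and apart, and in OX3 the spread within each group exceeded the difference between their means.

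At the other end stood the genes with the least spread in OX3, for which a level mean rested on closely placed libraries. Glyma.16G035400 was at 13.1, 12.4 and 11.8 CPM in the W controls and at 6.37, 5.25 and 5.29 CPM in W at 50 µM. Its OX3 controls were at 10.6, 9.87 and 8.23 CPM and its OX3 libraries at 50 µM at 9.29, 7.31 and 9.91 CPM. Every OX3 library lay between the W groups. The W ratio was -1.07 and the OX3 ratio -0.11, with an OX3 spread of 0.132 times the mean.

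Glyma.20G139700 had the smallest OX3 spread, 0.0988 times the mean, with OX3 controls at 8.09, 8.66 and 8.81 CPM and OX3 libraries at 50 µM at 6.83, 7.64 and 8.90 CPM. Its W controls were at 11.5, 17.96 and 14.5 CPM and its W libraries at 50 µM at 7.82, 6.74 and 5.23 CPM. The OX3 libraries of both treatments stood below all W controls.

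**Figure D2:**
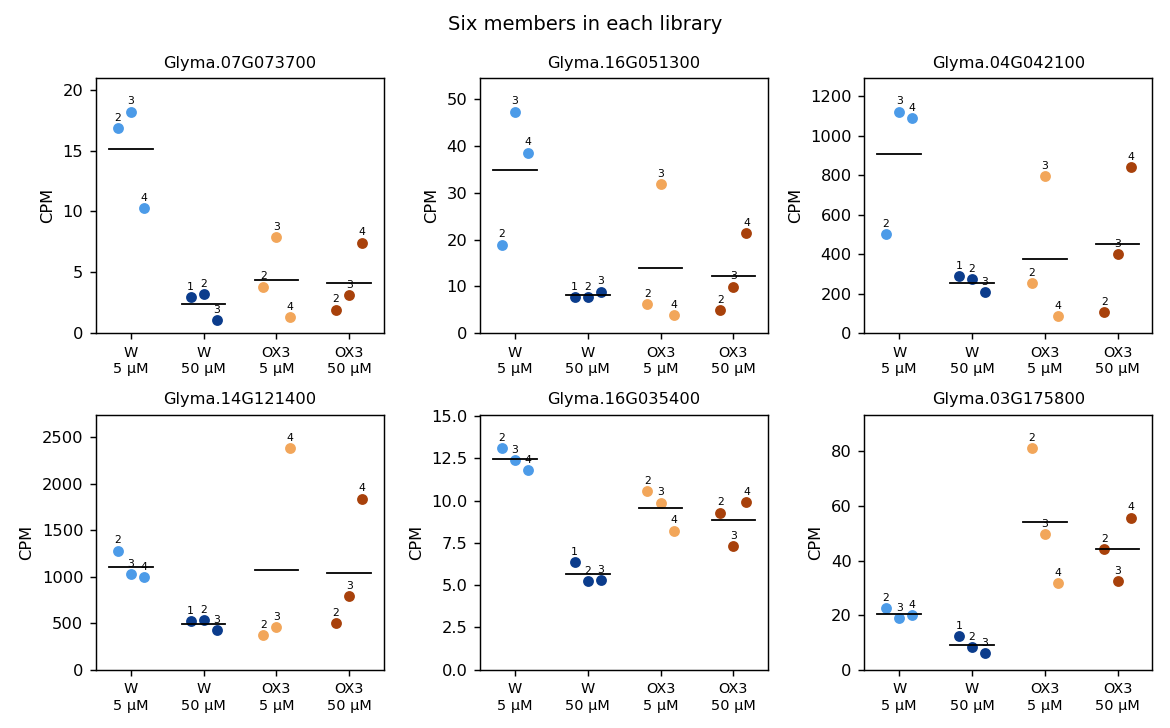
CPM of 6 of the genes in each library, by material and MnSO4 dose; each point is 1 library with its label number, and the line is the mean of the 3 libraries. In all 6 the W groups are apart and the OX3 groups overlap, most narrowly spread in Glyma.16G035400 and most widely in Glyma.16G051300.

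The OX3 groups overlapped in all 198 genes. The OX3 groups did not overlap in 20.4% of all genes at 2 CPM or more, but the OX3 window of the choice nearly forces an overlap. It also acts on the order of the OX3 libraries, so that the counts of this order are a description of the chosen genes. OX3 50 µM 4 was the highest of its group in 155 of the 198 genes, against 36.8% of all genes, and OX3 control 4 was the lowest of its group in 156, against 50.4% of all genes. Both held at once in 119 of the 198, against 19.6% of all genes.

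OX3 50 µM 4 lay above all 3 OX3 controls in 65 of the 198 genes, or 32.8%, against a background of 15.6% of all genes. OX3 50 µM 2 lay below all OX3 controls in 98, or 49.5%, a share near the 45.4% of all genes. OX3 50 µM 3 did so in 50, or 25.3%, against 31.6%. Both OX3 50 µM 2 and 3 were below both OX3 control 2 and 3 in 109, or 55.1%, against 39.9% of all genes.

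Leaving out a library that the choice used can move genes out of the OX3 window, so the following counts are a description too. Without OX3 50 µM 4, the median OX3 ratio of the 198 genes was -0.35, against -0.18 for all genes. Then 115 lay below the window of -0.3 to 0.3, 81 stayed within it and 4 reached -1 or lower. Without OX3 control 4, the median was -0.30, against -0.21 for all genes, and 97 lay below the window. Without OX3 control 3, it was -0.05, against -0.15, and 132 stayed within the window. Without OX3 50 µM 2, it was 0.02, against -0.10, and 168 stayed within the window. Within groups, the genes had a median relative spread (SD over mean of 3 libraries) of 0.335 in OX3 at 50 µM, against 0.235 for all genes, and of 0.311 in the OX3 controls, against 0.254. It was also wider in W, at 0.323 in the controls, against 0.290 for all genes, and 0.259 at 50 µM, against 0.220.

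**Figure D3:**
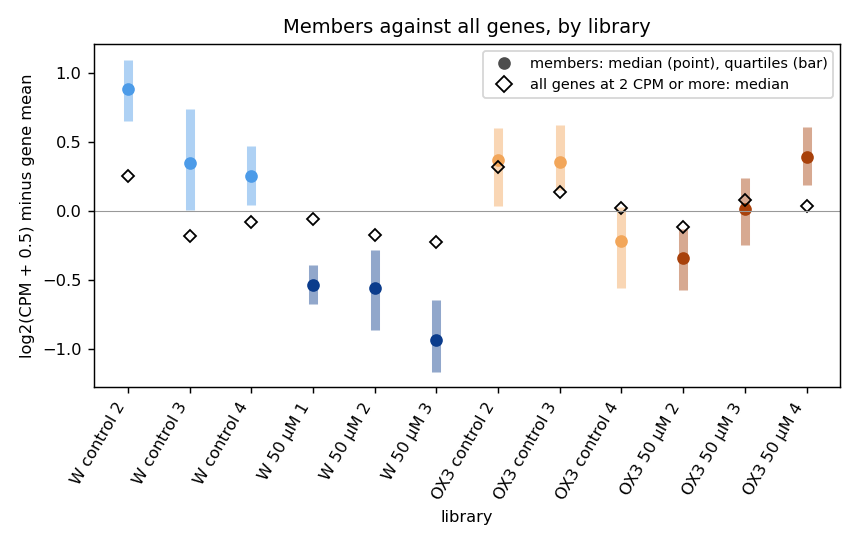
Log2(CPM + 0.5) minus each gene's mean over 12 libraries, by library: points and bars are the median and quartiles of the 198 genes, and open diamonds the median of all genes at 2 CPM or more. The OX3 libraries of both treatments range widely, from a median of -0.34 in OX3 50 µM 2 to 0.40 in OX3 50 µM 4.

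In W, a pair of libraries stood at the ends. W control 2 was the highest of all 12 libraries in 119 of the 198 genes and the highest W control in 147, against 63.1% of all genes. W 50 µM 3 was the lowest of all 12 libraries in 104 and the lowest of its group in 129, against 44.3% of all genes. The choice itself places the W controls high and the W libraries at 50 µM low. The median deviation from a gene's mean was 0.88 log2 units in W control 2, 0.35 and 0.26 in W control 3 and 4, -0.53 and -0.56 in W 50 µM 1 and 2, and -0.93 in W 50 µM 3. Without W control 2, 88 of the 198 still met the rule, and without W 50 µM 3, 128 did.

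The OX3 controls differed with which W control was highest. The 147 with W control 2 highest had a median deviation of 0.44 in OX3 control 2, the highest of the OX3 controls, and of -0.15 in OX3 control 4, the lowest. All genes at 2 CPM or more had the same order, with medians of 0.32, 0.14 and 0.02 in OX3 control 2, 3 and 4. The 41 with W control 3 highest had their highest OX3 control median in OX3 control 3 (0.67) and their lowest in OX3 control 4 (-0.75), as Glyma.11G087300 and Glyma.16G051300 did. In the 10 with W control 4 highest, these medians were 0.36 and -0.07. Over all 198, the first principal component of log2(CPM + 0.5) took 61.6% of the variance and the second 16.5%, and the median correlation between pairs of them over the 12 libraries was 0.69, a value that the choice on the same libraries raises.

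**Figure D4:**
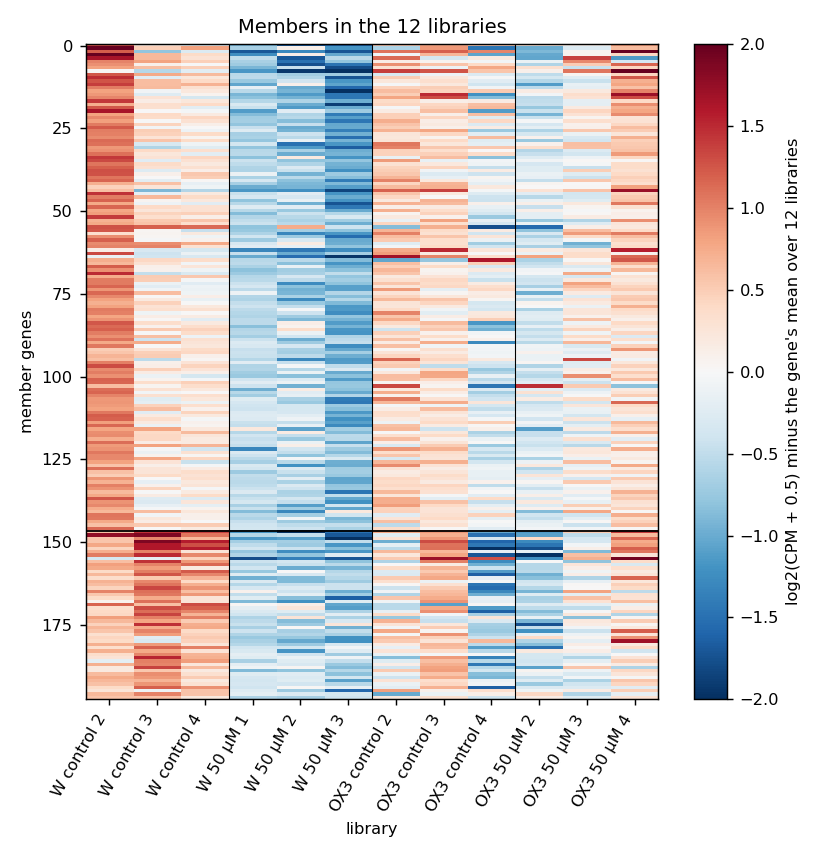
Log2(CPM + 0.5) minus the gene's mean for the 198 genes (one line each) in the 12 libraries; the horizontal line parts the 147 genes with W control 2 highest among W controls (above) from the other 51 (below), each ordered by W ratio. Red is higher and blue lower than the gene's mean; among the OX3 libraries, control 4 and 50 µM 2 are bluest in the lower block.

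A property the choice did not use was gene length. It is here the length that the FPKM values were divided by, recovered from the deposited counts and FPKM values. The 198 genes had a median length of 3067.5 bp, against 1921 bp for all genes at 2 CPM or more. The longest quintile of all genes, those over 2850.4 bp, held 107 of them, or 54.0%, and the shortest quintile held 16. Put the other way, 2.11% of the longest quintile were among the 198 and 0.314% of the shortest quintile. Genes lowered in both materials by the same conditions had a median of 2055.5 bp.

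Length also moved with the libraries. Over all genes, the median W ratio went from 0.14 in the shortest quintile to -0.46 in the longest, while the median OX3 ratio went from -0.18 to -0.10. In each library, the median deviation from a gene's mean log2 level was taken in the longest quintile minus that in the shortest. It was 0.57 in W control 2 and -0.43 in W 50 µM 3, the libraries at the ends of the W range. In OX3 control 4 it was -0.23 and in OX3 50 µM 4 it was 0.18. The part of this length trend in the pattern of the 198 genes, and its source, were not tested.

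When each library's trend with length was removed, a step chosen after the data were seen, the median W ratio of the 198 genes was -0.82 and all 198 remained below 0. Of the 198, 45 still met the whole rule. The 147 genes with W control 2 highest had a median length of 3424 bp and 26 of them still met it, while the other 51 had a median of 2235 bp and 19 still met it. Both the TMM scaling and the length step kept 39 genes, with a median length of 2041 bp, a median W ratio of -1.40 and, with the length trend removed, of -1.22. Those 39 met the OX3 window under each scaling, so the order of their OX3 libraries is a description too. OX3 50 µM 4 was the highest of its group in 32 of them, against 36.8% of all genes. OX3 control 4 was the lowest in 29, against 50.4% of all genes. Without OX3 50 µM 4 their median OX3 ratio was -0.47, against -0.18 for all genes.

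**Figure D5:**
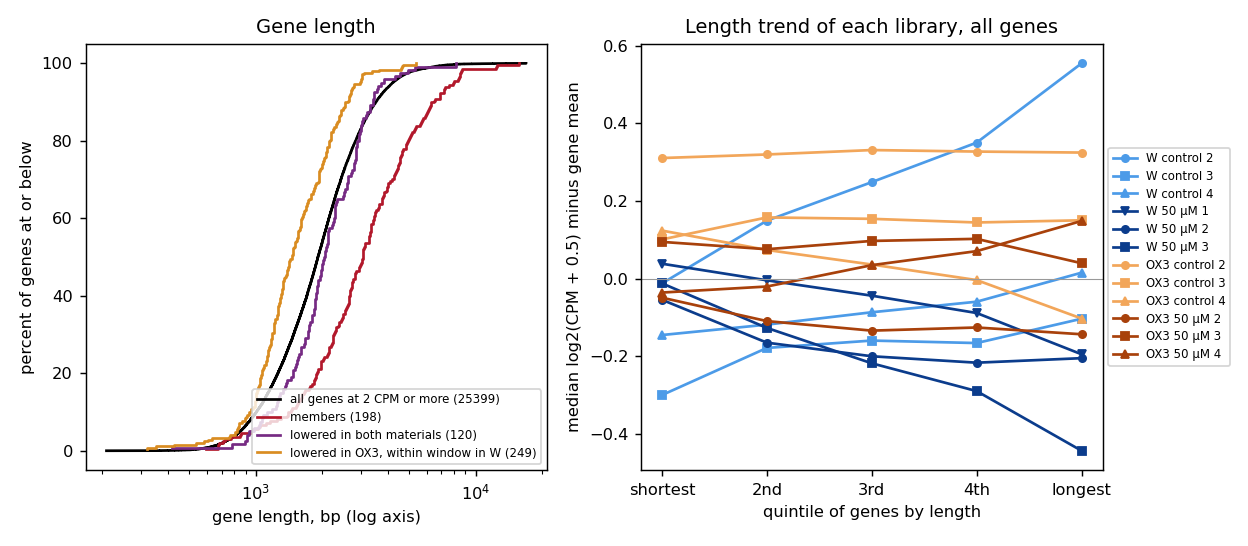
Left, percent of genes at or below each gene length (log axis) for the 198 genes, all genes at 2 CPM or more, genes lowered in both materials and genes lowered only in OX3. Right, median log2(CPM + 0.5) minus the gene mean in each quintile of all genes by length, one line per library: W control 2 climbs by 0.57 and W 50 µM 3 drops by 0.43 from the shortest to the longest quintile.

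4 genes met the rule whichever single library was left out, and they are named after their values were seen: Glyma.13G162900, Glyma.20G194400, Glyma.13G345300 and Glyma.16G035400. Glyma.13G162900 met it also under TMM and with the length trend removed, the only one of the 198 to meet all of these. It stood at 42.8, 48.6 and 54.0 CPM in the W controls and at 16.5, 17.6 and 16.5 CPM in W at 50 µM. Its OX3 controls were at 24.3, 27.0 and 12.2 CPM and its OX3 libraries at 50 µM at 16.1, 28.5 and 19.4 CPM. The W groups were tight and far apart, with a W ratio of -1.496, and the OX3 groups overlapped, all below the W controls and with OX3 control 4 and OX3 50 µM 2 also below the W libraries at 50 µM. The OX3 ratio was 0.01.

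At the W limit stood Glyma.08G086100 and Glyma.17G153800, at -1.0002 and -1.0005, with Glyma.10G013500 just outside at -0.999998. At the lower OX3 limit, Glyma.09G228800 and Glyma.20G235300 lay inside at -0.2985 and -0.2981 and Glyma.07G155300 outside at -0.3007. At the upper limit, Glyma.01G152800 and Glyma.06G311000 lay inside at 0.2987 and 0.2979 and Glyma.13G214200 outside at 0.38. By mean level, Glyma.14G149800 and Glyma.13G303400 were the nearest inside, at 2.07 and 2.11 CPM. The W groups were closest in Glyma.13G336800 and Glyma.14G217400, whose highest library at 50 µM reached 0.99986 and 0.998 times the lowest control.

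Fitted by edgeR's quasi-likelihood test over all 31841 genes that passed its count filter, all 198 of the genes among them, none was called for 50 against 5 µM in W at a Benjamini-Hochberg adjusted p under 0.05, where 0.00314% of all genes were called. The lowest adjusted p among them in that edgeR fit was 0.162, and 184 had an unadjusted p under 0.05, against 18.6% of all genes. DESeq2 called 85, against 5.08% of all genes. For 50 against 5 µM in OX3, edgeR called none, against 0% of all genes, DESeq2 called none, against 3.44%, and none had an unadjusted p under 0.05, against 15% of all genes. For the difference between these responses, the interaction, edgeR called none, against 0.00314% of all genes, with a lowest adjusted p of 0.648 and 113 at an unadjusted p under 0.05, against 7.55% of all genes. DESeq2 called 5 for the interaction, against 0.226% of all genes. These contrasts chose the genes, so the counts are given with no reading, and no single one of the 198 was shown by edgeR to respond differently in W and OX3.

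At 5 µM most of the genes had a lower mean in OX3 than in W, and at 50 µM a higher one. The OX3 control mean was below the W control mean in 160 of the 198, and the OX3 mean at 50 µM was above that of W in 191. The median log2 ratio of OX3 to W was -0.36 at 5 µM and 0.67 at 50 µM, against 0.16 for all genes at either dose. All OX3 controls were below all W controls in 29, against 3.68% of all genes, and all OX3 libraries at 50 µM were above all W libraries at 50 µM in 93, against 15.6% of all genes. edgeR called none for OX3 against W at 5 µM, against 0.0126% of all genes, and 61 had an unadjusted p under 0.05, against 10.2%. It called none at 50 µM either, against 0.0157%, and 75 had an unadjusted p under 0.05, against 8.76%. DESeq2 called 6 at 5 µM, against 0.735% of all genes, and 17 at 50 µM, against 0.754%. Both comparisons share the libraries that chose the genes.

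OX3 against W averaged over both treatments is a contrast the rule did not set, although it uses the same libraries. The median fitted log2 fold change of the 198 genes was 0.02, against 0.03 for all genes tested, with 102 above and 96 below 0. edgeR called 1 of the 198, or 0.505%, against 0.148% of all genes, and DESeq2 called 10, against 1.9%. At an unadjusted p under 0.05 there were 33, or 16.7%, against 11.6% of all genes, with 24 higher in OX3, against 5.62%, and 9 lower, against 5.95%.

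The called gene was Glyma.03G175800, on chromosome 3. It stood at 22.7, 18.9 and 19.96 CPM in the W controls and at 12.2, 8.36 and 6.14 CPM in W at 50 µM. Its OX3 controls were at 81.2, 49.7 and 31.9 CPM and its OX3 libraries at 50 µM at 44.2, 32.5 and 55.8 CPM. All 6 OX3 libraries lay above all 6 W libraries, and OX3 was higher by a log2 fold change of 1.69 (SE 0.22, n = 6 libraries per material), with an edgeR adjusted p of 0.0137. In the fit with a replicate block, the edgeR adjusted p was 0.0751 and the log2 fold change 1.80. W 50 µM 1 was alone in its block, so that fit in effect left it out of the contrast. Without W 50 µM 1 and with no block, the edgeR adjusted p was 0.0256 and the log2 fold change 1.81. Without W control 4 the edgeR adjusted p was 0.0533, and without W 50 µM 2 it was 0.0561.

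The count of 1 called gene was 0 under the block and without W control 4 or W 50 µM 2. Over all genes, the calls were 47 in the full fit, 11 under the block, 20 without W control 4 and 22 without W 50 µM 2. The count was 6 without W control 2, where all genes gave 579 calls, 2 without W 50 µM 1, where they gave 30, and 2 without OX3 50 µM 2, where they gave 43. All 6 OX3 libraries lay above all 6 W libraries in 3 of the 198 genes, against 0.366% of all genes, and below them in none, against 0.165%. The other two, named for this after their values were seen, were Glyma.03G259900 and Glyma.05G217100, with edgeR adjusted p-values of 0.0541 and 0.0870. Glyma.05G217100 was at 14.3, 10.2 and 10.008 CPM in the W controls, at 4.92, 4.47 and 5.17 CPM in W at 50 µM, at 21.8, 37.3 and 15.3 CPM in the OX3 controls and at 14.7, 15.4 and 39.2 CPM in OX3 at 50 µM.

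By the chromosome in the identifiers, the genes lay on all 20 chromosomes, with 1 on an unplaced sequence, and made up between 0.390% of the genes at 2 CPM or more on chromosome 11 and 1.28% on chromosome 1. 5 pairs were direct neighbours in the order of identifiers at 2 CPM or more, and 18 pairs lay within 10 steps. How many such pairs a set of this size would hold at any positions was not computed, so these counts have no reading. One neighbouring pair, Glyma.05G198900 and Glyma.05G199000, had a correlation of 0.88 over the 12 libraries, and another, Glyma.16G218100 and Glyma.16G218200, one of 0.58.

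Outside the 198, the genes whose log2(CPM + 0.5) over the 12 libraries was most like their mean profile were Glyma.17G027100, Glyma.08G199700 and Glyma.15G166700, with Pearson correlations of 0.977, 0.974 and 0.974. Their W groups were also apart and their OX3 ratios were -0.03, -0.16 and -0.10, but their W ratios of -0.63, -0.88 and -0.80 did not reach the limit. In all, 255 genes outside the 198 had a correlation over 0.9 with that profile.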

How the data were processed

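The deposited gene counts were made by the authors. HTSeq 0.6.0, HISAT2 2.1.0, Bowtie2 2.2.3, TopHat2 and CASAVA are the tools listed in the submitters' processing notes. The deposited gene identifiers end in Wm82.a2.v1, a suffix left out here, and the sources used here give no other statement of the genome build. The deposited FPKM table, also the authors', gave gene lengths (count over FPKM and column total) and an alternative. From the counts, CPM and ratios with a pseudocount of 0.5 were computed with pandas 2.3.3. Tests used edgeR 4.0.16 (TMM, quasi-likelihood, 31841 genes, all 12 libraries in one fit) with Benjamini-Hochberg adjustment over all genes; DESeq2 1.42.0 and limma 3.58.1 were alternatives. The scripts were tested on simulated data.

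The genes and lists were chosen with earlier results of these data known. Named genes were the 10 with the lowest W ratio, the 6 with the highest mean CPM, those called for OX3 against W over both treatments, the 2 most and 2 least spread in OX3, and those nearest each limit. The planned product-description lists and tissue markers were not used here, since 0 identifiers matched the reference table.

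Between W and OX3, the controls that share a number had r of 0.41, 0.49 and 0.39. At 50 µM only 2 numbers were shared (r = 0.22 and 0.40). These values were not compared with r between libraries of different numbers, so whether the numbers mark pairs was not tested. Across treatments, same-numbered libraries had r of -0.04 and 0.29 in W and -0.27, 0.03 and -0.05 in OX3, and the block joins these too. W 50 µM 1 stood alone in its block, so the block fit in effect left it out of the contrasts.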

Additional observations from a re-analysis of the deposited data

How the results depend on the processing

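The count of 198 genes meeting the rule depended on the settings. It was 125 with FPKM in place of CPM for the ratios. Within a gene FPKM is proportional to CPM, so this setting changed only the weight of the added 0.5. The count was 114 with an OX3 window of 0.2, 372 with a window of 0.5 and 108 with the length trend removed (added after the data were seen). Under TMM it was 161, and 83 of the 198 were among them. Leaving out 1 library gave from 95 to 449 genes: 116 without W control 2, 449 without W control 3, 353 without W control 4, 373 without W 50 µM 1, 301 without W 50 µM 2, 122 without OX3 control 4, 322 without OX3 50 µM 2 and 95 without OX3 50 µM 4. Leaving out a W library also eases the condition that the W groups do not overlap.

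For OX3 against W over both treatments, the 1 call (47 over all genes) became 10 with DESeq2 (605 over all genes), 2 with limma on log2(FPKM + 1) (49), 2 without a filter on low counts (54) and 0 with the replicate block (11). Leaving out 1 library gave from 0 to 6, with 20 to 579 over all genes. At 5 µM DESeq2 called 6 (234 over all genes), against 0 by edgeR (4). At 50 µM DESeq2 called 17 (240), against 0 by edgeR (5), while limma called 1 on FPKM (20) and 1 with the length trend removed (23). For 50 against 5 µM in W, DESeq2 called 85 (1616 over all genes) in place of 0 (1). For the interaction it called 5 (72) in place of 0 (1). The cause was not tested. The replicate block changed no other call, and no called value changed its direction; OX3 ratios, near 0 by choice, changed sign under some settings. Groups had 3 libraries each, and the lowest count of any of the 198 genes in a library was 3.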

Other observations

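The mirrored choices gave shorter genes than the 198. The 249 genes lowered in OX3 and within the window in W had a median length of 1465 bp, and 13 of them lay in the longest quintile of all genes. The 111 genes raised in W and within the window in OX3 had a median of 1497 bp, and 7 lay in the longest quintile. All 1002 genes lowered in W, the 198 included, had a median of 2377.5 bp.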
